A study of Mus musculus with 15 samples.

Results

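Skin taken 7 days into a wounding course was compared with skin taken on day 0, with 3 RNA-seq libraries per time, 6 of the 15 libraries of a series that also covers day 1, 3 and 5. The libraries were chosen by the time in their labels. Both groups were skin of C57BL/6 mice, which the labels describe as cleaned of muscle and fat and frozen before extraction, and polyadenylated RNA was sequenced. Muscle and fat transcripts were present all the same: skeletal muscle genes took 0.403% to 1.11% of the counts at day 7 and 1.16% to 1.79% at day 0, and adipocyte genes 0.207% to 0.341% at day 7 and 0.373% to 0.474% at day 0. The day 7 and day 0 groups both carry the wound label, so day 0 is not called unwounded here, and the labels give no age, no sex and no part of the wound. They do not tell whether the 3 libraries of a group stem from different mice, so a p-value here stands for the spread among these samples, part of which may be technical.

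Skin repair begins with inflammation, in which neutrophils and then monocytes enter the wound, and passes into a phase in which keratinocytes cover the gap while fibroblasts lay down a provisional matrix of tenascins, periostin and collagens. Intact dermis holds long-lived resident macrophages, known by scavenger receptors and C-type lectins that freshly arrived monocytes lack. Interferon-stimulated genes encode antiviral proteins and are switched on through the interferon receptors and the STAT and IRF transcription factors.

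Levels are CPM, the count of a gene relative to the library total after TMM scaling; where no single library is shown, a level is the mean ± SD of 3 libraries. Library totals were 47000483, 38062562 and 54719929 estimated counts in day 7 replicates 1 to 3, against 52620750, 39536576 and 49461513 in day 0 replicates 1 to 3. Of 30281 named genes, 17136 passed the filter on low counts and were tested. The tissue label was checked by 6 genes. The keratin Krt5 of the basal epidermis stood at 1235 ± 207 CPM at day 7 and 1164 ± 458 CPM at day 0, and the dermal collagen Col3a1 at 18284 ± 6187 and 21291 ± 2256 CPM. Krt14, Krt1, Krt10 and Col1a1 were likewise present in each of the 6 libraries, with Krt1 lowest at 803, 556 and 537 CPM in day 0 replicates 1 to 3.

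The 6 libraries were not alike within their groups. Genes of the 2 hair follicle lists took 0.105%, 0.0923% and 2.86% of the counts in day 7 replicates 1 to 3, against 0.0375%, 0.0670% and 0.284% in day 0 replicates 1 to 3, so day 7 replicate 3 stood apart. Day 0 replicate 1 was high in Krt6a, a keratin of the wound edge, at 708 CPM, against 54.3 and 95.2 CPM in day 0 replicates 2 and 3. Between the log2 levels of day 7 replicates 1 and 2 the correlation across genes was 0.991, and between day 7 replicate 3 and each of them 0.942. Within day 0 the correlations across genes were 0.966 to 0.987.

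In all, 1208 genes (7.05% of those tested) differed between day 7 and day 0 (quasi-likelihood test of edgeR, p-values adjusted by Benjamini-Hochberg). Of these, 532 (3.1% of genes tested) were higher at day 7 and 676 (3.94%) were lower. By at least 2-fold, 139 (0.811%) were higher and 288 (1.68%) were lower. Over all genes the log2 fold change had a median of 0.017. The 3 day 7 and the 3 day 0 libraries did not overlap in 5001 genes (29.2%), and 4789 genes had an unadjusted p under 0.05.

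The number of calls depended on which libraries were in the fit. Leaving out day 7 replicate 1, 2 or 3 gave 2074, 425 and 288 calls, and leaving out day 0 replicate 1, 2 or 3 gave 1100, 291 and 279. The 6 libraries fitted alone gave 65 calls, and the replicate number as a block gave 822 with all 15 libraries and 0 with the 6 alone, where 2570 genes had an unadjusted p under 0.05. Of the genes called, 167 were called in each of the 6 fits that left out 1 of the 6 libraries, 67 higher and 100 lower. DESeq2 called 2809.

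Genes were grouped into 39 lists for cell types, structures and pathways of skin, which hold 660 genes, 654 of them tested. Counts of list members are those of edgeR's fit of all 15 libraries unless another fit or tool is named. Over all genes tested in that fit, 3.1% were higher and 3.94% were lower at day 7, the shares to set beside each count. The plot of list members by fold change shows the resident macrophage, cytokine and interferon lists at the low end and the hair follicle lists at the high end, where edgeR's fit of all 15 libraries called no hair follicle gene and DESeq2 called 5 hair follicle regulators and structural genes.

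**Figure D1:**
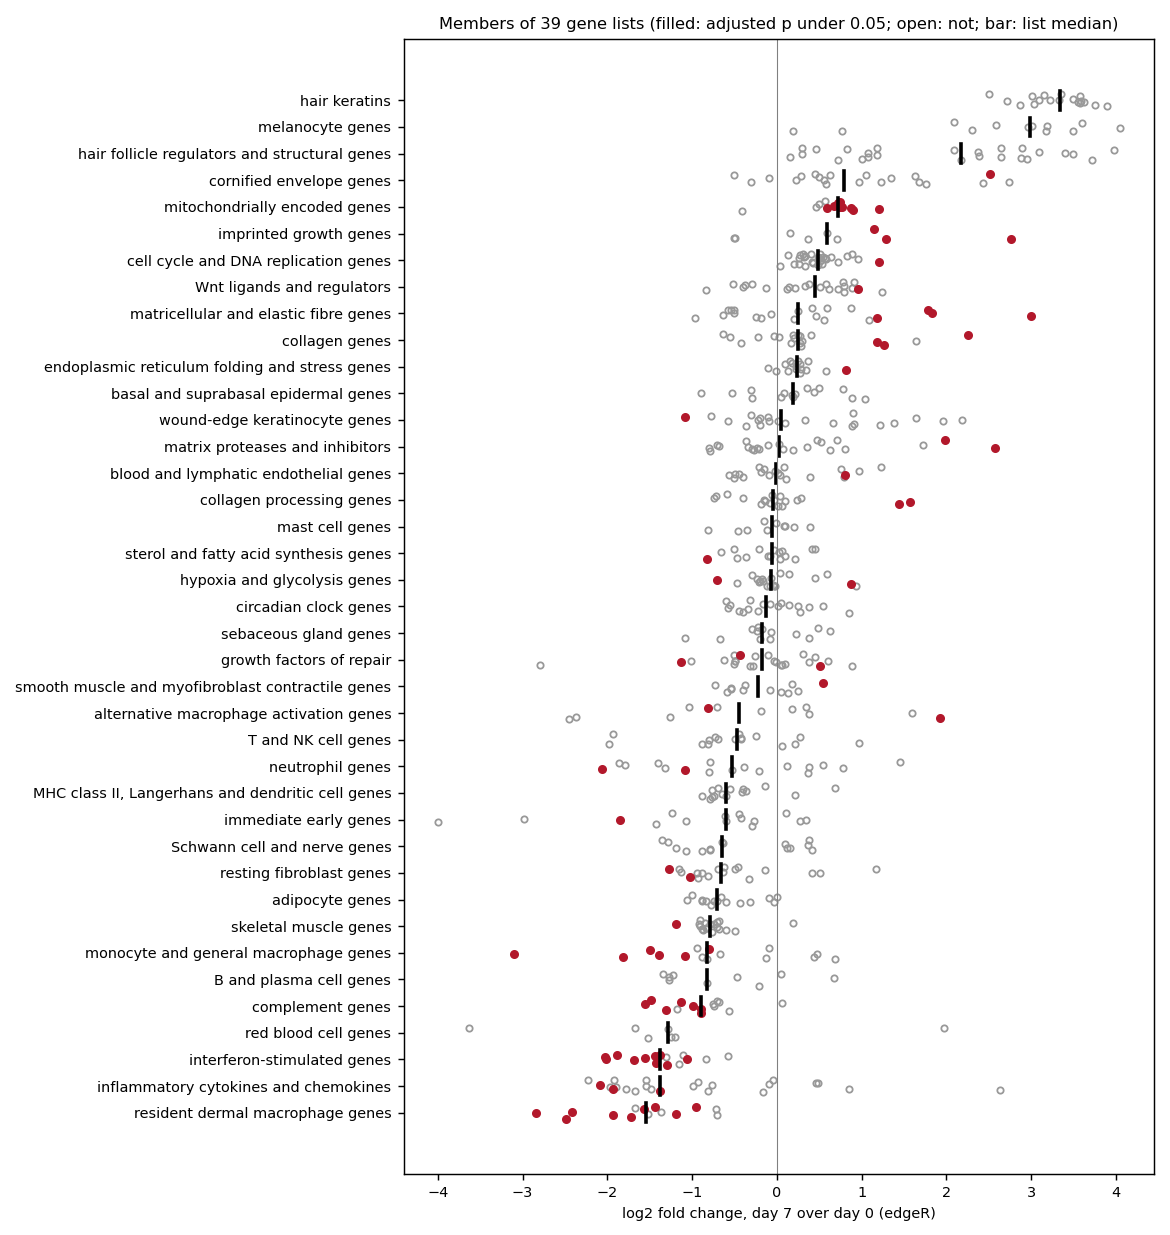
Log2 fold change of day 7 over day 0 for each tested member of 39 gene lists, ordered by list median (black bar). Filled points passed the test at an adjusted p under 0.05 and open points did not; the resident dermal macrophage list has the lowest median, -1.54, with 9 of 14 members lower, and the hair keratin list the highest, 3.34, with no member called by edgeR, DESeq2 or limma-voom.

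Genes of resident dermal macrophages were lower at day 7. Of 14 members tested, 9 fell and 5 did not pass, none rose, and the median log2 fold change was -1.54, where 3.94% of all genes tested fell. The libraries of both times did not overlap for any of the 14, as against 29.2% of all genes. In these bulk samples, fewer cells of a type and less RNA per cell cannot be told apart.

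The C-type lectin gene Cd209f had 24.2, 24.1 and 12.4 CPM in the day 7 libraries, against 112, 109 and 103 CPM in the day 0 libraries. Every day 7 library was far below every day 0 library, and Cd209f fell 5.35-fold, by 2.42 ± 0.32 (SE) on the log2 scale (adjusted p = 0.00523). Its relative Cd209g had 8.897, 10.1 and 3.44 CPM at day 7 and 31.2, 47.3 and 46.8 CPM at day 0, and fell by 2.48 ± 0.37. Timd4, a receptor for phosphatidylserine on dying cells, was at 1.41, 1.48 and 0.561 CPM at day 7 and 9.27, 7.16 and 8.14 CPM at day 0. It fell 7.15-fold (adjusted p = 0.00904). Folr2, the folate receptor of macrophages, had 76.2, 55.6 and 34.2 CPM at day 7 and 121, 244 and 268 CPM at day 0, and Cbr2, a carbonyl reductase, had 73.4, 71.3 and 56.1 CPM at day 7 and 170.1, 238 and 187 CPM at day 0. Folr2 fell by 1.93 ± 0.33 and Cbr2 by 1.57 ± 0.19 on the log2 scale.

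Lyve1, a hyaluronan receptor shared with lymphatic vessels, fell to 26.6 ± 3.17 CPM at day 7, against 72.1 ± 23.2 CPM at day 0 (n = 3 each; adjusted p = 0.0101). Cd163, the haemoglobin scavenger receptor, fell by 1.72 ± 0.43 on the log2 scale, the mannose receptor Mrc1 by 0.95 ± 0.23, and F13a1, a coagulation factor subunit made by macrophages, by 1.19 ± 0.29. Those 3 calls were lost without day 7 replicate 3 (adjusted p = 0.124, 0.0934 and 0.0861) and also without day 7 replicate 2, day 0 replicate 2 or day 0 replicate 3. Without day 0 replicate 1 the adjusted p was 0.0674 for Cd163 and 0.0584 for Mrc1, and with the replicate block it was 0.0507 for Mrc1 and 0.0586 for F13a1. The list had 6 members lower with day 7 replicate 3 left out, 8 with day 0 replicate 1 left out and 5 with both left out. With day 0 replicates 2 and 3 both left out it had 3, and in the 6 libraries alone 2.

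Siglec1 and Fcna, macrophage genes outside the lists, were taken by rank, as among the 10 genes with the smallest p on the low side that met the naming rule. Siglec1, a receptor for sialic acid on macrophages, had 42.4, 21.01 and 19.4 CPM at day 7 and 136, 143 and 177 CPM at day 0. It fell 5.498-fold, by 2.46 ± 0.31 on the log2 scale (adjusted p = 0.00474). Fcna, a lectin that starts the lectin pathway of complement, had 10.2, 7.91 and 4.16 CPM at day 7 and 35.7, 43.2 and 41.4 CPM at day 0, and fell by 2.44 ± 0.32. Both were taken by a rule that required groups without overlap and a change of at least 2-fold.

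Of 15 genes of monocytes and macrophages in general, 6 fell, none rose and the median log2 fold change was -0.82. Among all genes tested 3.94% fell. The summed level of the list was 3413, 2854 and 2297 CPM in day 7 replicates 1 to 3. In day 0 replicates 1 to 3 it was 2915, 3692 and 4421 CPM, so the groups overlapped in the sum. Ly6c2, a surface protein of inflammatory monocytes, had 7.32, 5.88 and 11.3 CPM at day 7 and 59.4, 37.3 and 114 CPM at day 0. It fell 8.598-fold (log2 fold change -3.10 ± 0.52, adjusted p = 0.00974). Fcgr1, the high-affinity receptor for IgG, had 24.8, 21.3 and 23.8 CPM at day 7 and 98.9, 60.95 and 86.9 CPM at day 0, so that the day 7 libraries lay close together below a wider day 0 group. Itgam, the integrin chain CD11b, fell by 1.5 ± 0.23 on the log2 scale and Fcgr1 by 1.82 ± 0.26.

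Ccr2, the receptor that brings monocytes to tissue, fell to 109 ± 18.9 CPM at day 7, against 284 ± 73.4 CPM at day 0 (n = 3 each). The scavenger receptor Msr1 fell by 1.08 ± 0.23 and the lysosomal protein Cd68 by 0.80 ± 0.21 on the log2 scale. None of these 3 passed without day 7 replicate 3 (adjusted p = 0.0554 for Ccr2, 0.0674 for Msr1 and 0.129 for Cd68), nor without day 0 replicate 3 (0.0529, 0.0558 and 0.119). Msr1 and Cd68 also lost the call without day 7 replicate 2, and Cd68 without day 0 replicate 1 or 2 and with the replicate block (adjusted p = 0.0538). The list had 3 members lower when day 7 replicate 3 was left out, 6 when day 0 replicate 1 was, and 3 with day 0 replicates 2 and 3 both left out.

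Csf1, the growth factor on which macrophages depend, had 63.1, 46.2 and 33.4 CPM at day 7 and 117, 101 and 95.6 CPM at day 0, and fell by 1.13 ± 0.21 on the log2 scale (adjusted p = 0.0136). The alternative activation list has 12 genes, of which 1 rose and 1 fell. Arg1, arginase 1, had 34.4, 28.8 and 106 CPM at day 7 and 12.99, 13.2 and 18.5 CPM at day 0, with the highest value in day 7 replicate 3. It rose by 1.92 ± 0.49, and did not pass without that library (log2 fold change 1.09, adjusted p = 0.160) or without any 1 day 0 library (0.0824, 0.118 and 0.0885 without day 0 replicates 1, 2 and 3). The transglutaminase Tgm2 fell by 0.81 ± 0.22 (adjusted p = 0.0483), a call lost in each of the 6 fits without 1 library, where the adjusted p ran from 0.0543 without day 7 replicate 1 to 0.163 without day 7 replicate 3, and with the replicate block (0.0560).

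**Figure D2:**
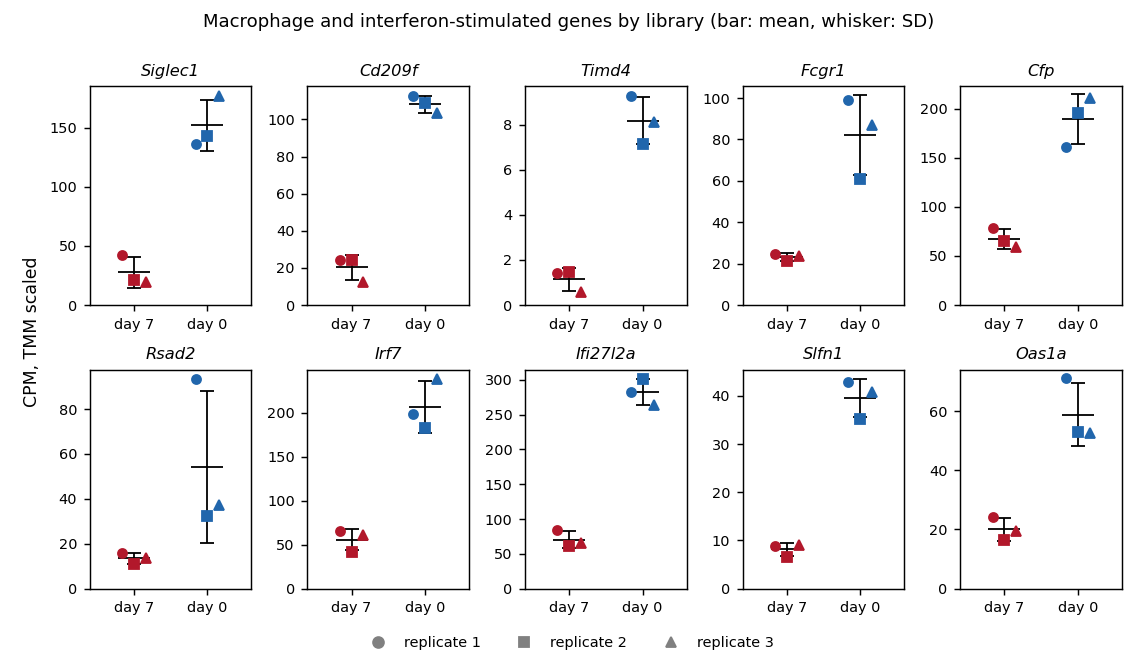
Levels in CPM of 10 macrophage and interferon-stimulated genes in the 3 day 7 libraries (red, left) and the 3 day 0 libraries (blue, right); marker shapes give the replicate number, horizontal bars the mean and whiskers the SD. The day 7 points lie below all day 0 points in each panel, which the naming rule required of genes taken by rank, and Rsad2 shows the widest day 0 group.

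Interferon-stimulated genes were lower at day 7. Of 15 members tested, 10 fell, none rose, and the median log2 fold change was -1.38, where 3.94% of all genes tested fell. The groups did not overlap for any of the 15, as against 29.2% of all genes. The summed level of the list was 563, 416 and 464 CPM in day 7 replicates 1 to 3, against 1285, 975 and 1267 CPM in day 0 replicates 1 to 3.

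The promoters of the 5 called members that hold the motif searched are shown because they carry the sequence through which interferon signalling is known to act. The motif was GAAA, then NN, then GAAA, the core of the interferon-stimulated response element, searched on both strands in RefSeq promoters of GRCm38.p6 that run from 250 bases before to 50 after the start of each gene. Stretches are given 5′ to 3′ on the strand of the gene with 20 bases on either side, and capitals mark the motif, with overlapping matches joined.
Ifit1, chr19:34640765-34640833, plus strand: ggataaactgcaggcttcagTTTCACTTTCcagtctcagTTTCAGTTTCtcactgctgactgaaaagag
Ifit3, chr19:34583353-34583436, plus strand: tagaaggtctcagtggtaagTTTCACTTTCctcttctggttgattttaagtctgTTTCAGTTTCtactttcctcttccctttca
Isg15, chr4:156200855-156200916, minus strand: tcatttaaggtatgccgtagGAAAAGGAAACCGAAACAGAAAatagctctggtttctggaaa
Oas1a, chr5:120907510-120907565, minus strand: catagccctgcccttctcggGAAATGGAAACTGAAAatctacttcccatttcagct
Rsad2, chr12:26456543-26456592, minus strand: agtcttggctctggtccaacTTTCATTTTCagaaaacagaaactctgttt
Of the list, 10 members were matched in the promoter table and 7 of them held the motif, against 495 of 12551 tested genes with a promoter there (3.94%). It was in 54 of 490 genes called lower (11.0%) and in 10 of 394 called higher (2.54%). A match is a description of these letters and not of a site in use. Gbp2 and Bst2, which were not called, also held it, while Oasl2, Irf7 and Ifi44 did not in this window, so 5 of 7 called and 2 of 3 uncalled members in the table held it.

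Rsad2, the antiviral enzyme viperin, had 15.8, 10.97 and 13.6 CPM at day 7 and 93.3, 32.4 and 37.2 CPM at day 0. Day 0 replicate 1 was the highest library, and the other day 0 libraries were still above all of day 7. Rsad2 fell 4.03-fold, by 2.01 ± 0.36 (SE) on the log2 scale (adjusted p = 0.0110). Oas1a, an oligoadenylate synthetase that senses double-stranded RNA, had 24.1, 16.4 and 19.6 CPM at day 7 and 71.1, 52.9 and 52.5 CPM at day 0, and fell 2.94-fold. Ifit3, which binds viral RNA together with its relatives, had 39.98, 30.8 and 33.2 CPM at day 7 and 154, 90.2 and 90.3 CPM at day 0. Its fall of 1.69 ± 0.32 lost the call without day 7 replicate 2 or 3 (adjusted p = 0.0516 and 0.0563).

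Ifit1 and the ubiquitin-like Isg15 fell less, by 1.06 ± 0.29 and 1.30 ± 0.36. Both calls were lost in each of the 6 fits without 1 library. For Ifit1 the adjusted p reached 0.117 without day 0 replicate 1 and was lowest, 0.0534, without day 7 replicate 1, and for Isg15 it reached 0.131 without day 0 replicate 1 and was lowest, 0.0684, without day 0 replicate 2. The replicate block gave 0.0528 for Ifit1 and 0.0828 for Isg15.

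Irf7, the transcription factor that drives the later interferon response, had 65.2, 41.8 and 60.5 CPM at day 7 and 199, 182 and 239 CPM at day 0, and fell 3.703-fold (log2 fold change -1.89 ± 0.32, adjusted p = 0.0101). Usp18, which removes Isg15 from proteins and dampens the receptor, fell by 1.44 ± 0.25 on the log2 scale. The antiviral GTPase genes Mx1 and Mx2 fell by 2.02 ± 0.37 and 1.38 ± 0.25, and Oasl2, a relative of the oligoadenylate synthetases, by 1.42 ± 0.25. These 5 were called in each of the 6 fits that left out 1 library, and so were Rsad2 and Oas1a. The list had 7 members lower when day 7 replicate 3 was left out, 8 when day 0 replicate 1 was, 5 when both were, 4 with day 0 replicates 2 and 3 both left out and 3 in the 6 libraries alone.

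Genes outside the list that interferon is known to induce were also taken by rank. Slfn1, of the Schlafen family, had 8.77, 6.55 and 9.11 CPM at day 7 and 42.8, 35.2 and 40.8 CPM at day 0, a 4.86-fold fall (adjusted p = 0.00243). Ifi27l2a had 83.9, 60.8 and 65.2 CPM at day 7 and 283, 302 and 263 CPM at day 0, and fell 4.04-fold. In both genes the libraries of a time lay close together. Ifi206, a member of the DNA-sensing Ifi200 family, fell by 2.25 ± 0.27 on the log2 scale, the helicase gene Ddx60 by 1.74 ± 0.24 and the DNA exonuclease gene Trex1 by 1.24 ± 0.17. Slfn4 varied more, with 10.3, 5.98 and 19.9 CPM at day 7 and 173, 47.3 and 67.5 CPM at day 0, and its fall of 2.99 ± 0.60 lost the call without day 7 replicate 2 (adjusted p = 0.0534). Ifit1bl1, whose near copies leave its value uncertain, fell by 2.76 ± 0.45.

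Complement genes were lower at day 7. Of 14 members, 7 fell and none rose, with a median log2 fold change of -0.89, where 3.94% of all genes tested fell. Cfp, properdin, which stabilises the convertase of the alternative pathway, had 78.3, 64.8 and 58.98 CPM at day 7 and 161, 196 and 211 CPM at day 0. It fell 2.81-fold, by 1.49 ± 0.16 on the log2 scale (adjusted p = 0.00243), and was called in each of the 6 fits without 1 library. Cfb, the protease of the same convertase, fell by 1.55 ± 0.33, and C4b of the classical pathway by 1.30 ± 0.33. The 3 chains of C1q, which starts the classical pathway and is made largely by macrophages, fell by 0.99 ± 0.27 for C1qa, 0.90 ± 0.24 for C1qb and 0.89 ± 0.24 for C1qc.

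Except for Cfp, these complement calls were lost when 1 library was left out. Without day 7 replicate 3 the adjusted p was 0.0772 for Cfb, 0.0622 for C4b and 0.163, 0.156 and 0.154 for C1qa, C1qb and C1qc. Without day 0 replicate 3 it was 0.0711 for Cfb, 0.0988 for C4b and 0.156, 0.145 and 0.145 for C1qa, C1qb and C1qc. They were also lost without day 7 replicate 2, all but Cfb without day 0 replicate 2, and C4b without day 0 replicate 1. With the replicate block, 2 members of the list were lower, and C1qa (adjusted p = 0.0792), C1qb (0.0754), C1qc (0.0682) and C4b (0.0558) did not pass. The summed level of the list was 3455, 2693 and 1763 CPM in day 7 replicates 1 to 3, against 4268, 4648 and 5808 CPM in day 0 replicates 1 to 3.

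Of 23 inflammatory cytokines and chemokines, 3 fell, none rose and the median log2 fold change was -1.38, where 3.94% of all genes tested fell. The groups did not overlap for 7 of the 23, as against 29.2% of all genes. Relative to the day 0 mean of each gene, the median member stood at -0.90, -0.79 and -0.38 (log2) in day 7 replicates 1 to 3. In day 0 replicates 1 to 3 it stood at 1.01, -0.67 and -0.34, so day 0 replicate 1 was far above the other libraries. The summed level was 721, 687 and 911 CPM at day 7 and 1321, 1253 and 1293 CPM at day 0. Cxcl10, an interferon-induced chemokine for T cells, had 5.17, 4.72 and 8.41 CPM at day 7 and 45.4, 11.1 and 21.6 CPM at day 0, and fell by 2.09 ± 0.42. Its adjusted p was 0.0581 without day 7 replicate 2. Ccl8, a monocyte chemokine, fell by 1.38 ± 0.29, with an adjusted p of 0.0739 without day 7 replicate 3 and losses also without day 7 replicate 2 or day 0 replicate 2 or 3. Ccl2, the ligand of Ccr2, had 8.39, 7.48 and 13.96 CPM at day 7 and 74.9, 16.9 and 22.4 CPM at day 0, where replicate 1 was the highest. Its fall of 1.94 ± 0.49 moved to -0.98 without day 0 replicate 1 (adjusted p = 0.0886), and was not called without day 7 replicate 1, 2 or 3 (0.0625, 0.0941 and 0.0755), without day 0 replicate 3 (0.0551) or with the replicate block (0.0725).

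Among 17 neutrophil genes tested, 2 fell and none rose, where 3.94% of all genes tested fell. Fpr2, a receptor for formylated peptides, had 1.704, 1.93 and 3.67 CPM at day 7 and 7.25, 5.44 and 17.8 CPM at day 0, and fell by 2.06 ± 0.41. Its adjusted p was 0.0566 without day 7 replicate 2 and 0.0551 without day 0 replicate 3. Csf3r, the receptor for granulocyte colony-stimulating factor, fell by 1.08 ± 0.25, and did not pass without day 7 replicate 2 (adjusted p = 0.0757), day 0 replicate 1 (0.0635) or day 0 replicate 3 (0.0798). The summed level of the list was 68.6, 68.0 and 283 CPM in day 7 replicates 1 to 3, against 279, 78.2 and 140 CPM in day 0 replicates 1 to 3, so the groups overlapped in the sum.

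Lymphocyte, dendritic and mast cell lists had no member called by edgeR. Of 16 T and NK cell genes, 2 had an unadjusted p under 0.05 and DESeq2 called 2 lower. The granzyme gene Gzmb had 2.12, 1.48 and 2.24 CPM at day 7 and 5.798, 2.88 and 14.3 CPM at day 0 (adjusted p = 0.0535, and 0.0495 with the replicate block). Of 9 B and plasma cell genes, 2 had an unadjusted p under 0.05 and DESeq2 called 1 lower. The immunoglobulin gene Ighm was at 80.6, 73.5 and 38.5 CPM at day 7 and 94.9, 182 and 173 CPM at day 0 (adjusted p = 0.0617, and 0.0412 without day 0 replicate 1). Of 15 genes of MHC class II, Langerhans and dendritic cells, 4 had an unadjusted p under 0.05, and of 10 mast cell genes 1 had, with no calls by DESeq2 or limma-voom. Cd74, the invariant chain of MHC class II, was at 1214, 1139 and 528 CPM at day 7 and 1175, 1764 and 2022 CPM at day 0, and these groups overlapped.

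Some matrix genes rose at day 7, a minor part of their lists. Of 21 matricellular and elastic fibre genes 4 rose, of 19 collagens 3 rose, of 18 collagen processing genes 2 rose and of 23 matrix proteases and inhibitors 2 rose, and none of these fell in edgeR's fit of all 15 libraries. DESeq2 called 2 collagen processing genes lower, and edgeR 1 with day 5 replicate 2 out of the shared spread. Of the proteases and inhibitors, 1 was lower with DESeq2, limma-voom, the replicate block and without day 7 replicate 1. The medians of the 4 lists were 0.25, 0.25, -0.05 and 0.03 on the log2 scale. In all 4 lists the groups overlapped in the summed level. For the collagens it was 60353.5, 56566 and 29532 CPM in day 7 replicates 1 to 3. In day 0 replicates 1 to 3 it was 59329, 68691 and 61150 CPM. In all genes tested, 3.1% rose.

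Tnn, the tenascin of the developing and healing stroma, had 63.1, 59.05 and 52.3 CPM at day 7 and 9.38, 5.39 and 7.01 CPM at day 0. It rose 7.996-fold, by 3.0 ± 0.37 (SE) on the log2 scale (adjusted p = 0.00446). Postn, periostin, which links collagen to cells, had 3606, 3680.2 and 3313 CPM at day 7 and 881, 954 and 1152 CPM at day 0. Postn rose 3.55-fold (adjusted p = 0.0126, and 0.0509 without day 0 replicate 2). In both genes the hair-rich day 7 replicate 3 was the lowest of its group and lay far above all day 0 libraries.

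Fbn2, the fibrillin of new elastic fibres, rose to 40.4 ± 12.6 CPM at day 7, against 11.8 ± 1.88 CPM at day 0 (n = 3 each), a call lost without day 7 replicate 2 (adjusted p = 0.0516) or day 0 replicate 2 or 3 (0.0688 and 0.0651). Cthrc1, a secreted protein of activated fibroblasts, had 216, 234 and 191 CPM at day 7 and 79.9, 105 and 98.4 CPM at day 0. It rose by 1.18 ± 0.31 (adjusted p = 0.0418), did not pass in any of the 6 fits without 1 library (0.0523 without day 7 replicate 1 to 0.0988 without day 0 replicate 3) and had an adjusted p of 0.0567 with the replicate block.

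Among the collagens, Col12a1, which coats fibrils and bridges them, had 272, 247 and 293 CPM at day 7 and 60.7, 38.4 and 71.6 CPM at day 0, and rose 4.76-fold (adjusted p = 0.0116). The day 7 libraries lay far above all day 0 libraries. Col7a1, which forms the fibrils that anchor epidermis to dermis, rose by 1.27 ± 0.28, and Col8a1, a network collagen of vessels, by 1.18 ± 0.30. Col7a1 lost the call without day 7 replicate 2 (adjusted p = 0.0636) or day 0 replicate 2 or 3 (0.0798 and 0.0756), and Col8a1 without day 7 replicate 2 or 3 (0.0779 and 0.0694) or day 0 replicate 1 or 2 (0.0825 and 0.118). The fibrillar collagen genes Col1a1 and Col3a1 did not pass. Col1a1 had 13935, 12496 and 6127 CPM at day 7 and 16517, 18663 and 15334 CPM at day 0 (adjusted p = 0.314), with its lowest value in day 7 replicate 3.

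Of the fibrillar collagens outside the list, Col27a1 had 27.5, 24.1 and 24.9 CPM at day 7 and 8.17, 9.54 and 11.3 CPM at day 0, a 2.64-fold rise with little spread (adjusted p = 0.00886). Col24a1 had 9.76, 7.14 and 7.97 CPM at day 7 and 1.14, 1.57 and 1.55 CPM at day 0 and rose 5.84-fold, with an adjusted p of 0.0583 without day 0 replicate 2 and 0.0574 without day 0 replicate 3. Both are minor fibrillar collagens known from cartilage and bone.

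Of the enzymes that modify collagen, P4ha3, a prolyl hydroxylase chain, rose by 1.44 ± 0.32 and Plod2, the lysyl hydroxylase of crosslinks typical of scars, by 1.57 ± 0.36. Without day 7 replicate 3 the adjusted p was 0.0724 for P4ha3 and 0.0998 for Plod2, and neither passed without any 1 day 0 library (0.0532, 0.0789 and 0.0578 for P4ha3 and 0.0646, 0.0861 and 0.0523 for Plod2, without day 0 replicates 1, 2 and 3). Mmp12, the macrophage elastase, had 221, 286 and 102 CPM at day 7 and 13.98, 20.6 and 68.1 CPM at day 0. Its rise of 2.57 ± 0.57 rests on wide groups, and the call was lost without day 7 replicate 2 (adjusted p = 0.0632) or day 0 replicate 2 (0.0860). Mmp11, a stromal metalloproteinase, had 77.1, 69.7 and 44.1 CPM at day 7 and 12.8, 16.4 and 19.2 CPM at day 0. It rose by 1.98 ± 0.43, and did not pass without day 7 replicate 2 (0.0568) or any 1 day 0 library (0.0547, 0.0767 and 0.0615 without day 0 replicates 1, 2 and 3).

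Further genes outside the lists rose. Prss35, a secreted protein of the trypsin family, had 161, 157 and 77.1 CPM at day 7 and 4.23, 4.81 and 12.9 CPM at day 0. It rose 17.98-fold, by 4.17 ± 0.72 on the log2 scale (adjusted p = 0.0108), with day 7 replicate 3 the lowest of its group. Cdh11, a cadherin of fibroblasts, had 149, 142 and 123 CPM at day 7 and 34.4, 45.5 and 60.4 CPM at day 0. Kif26b, a kinesin-like protein that acts in cell migration, had 30.7, 33.5 and 32.1 CPM at day 7 and 5.98, 6.15 and 8.36 CPM at day 0. Cdh11 rose 2.95-fold (adjusted p = 0.00885) and Kif26b 4.699-fold (adjusted p = 0.00886). Sorcs2, a sorting receptor for neurotrophin precursors, rose to 32.7 ± 2.23 CPM at day 7, against 10.2 ± 2.58 CPM at day 0 (n = 3 each). All 4 were called in each of the 6 fits without 1 library.

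**Figure D3:**
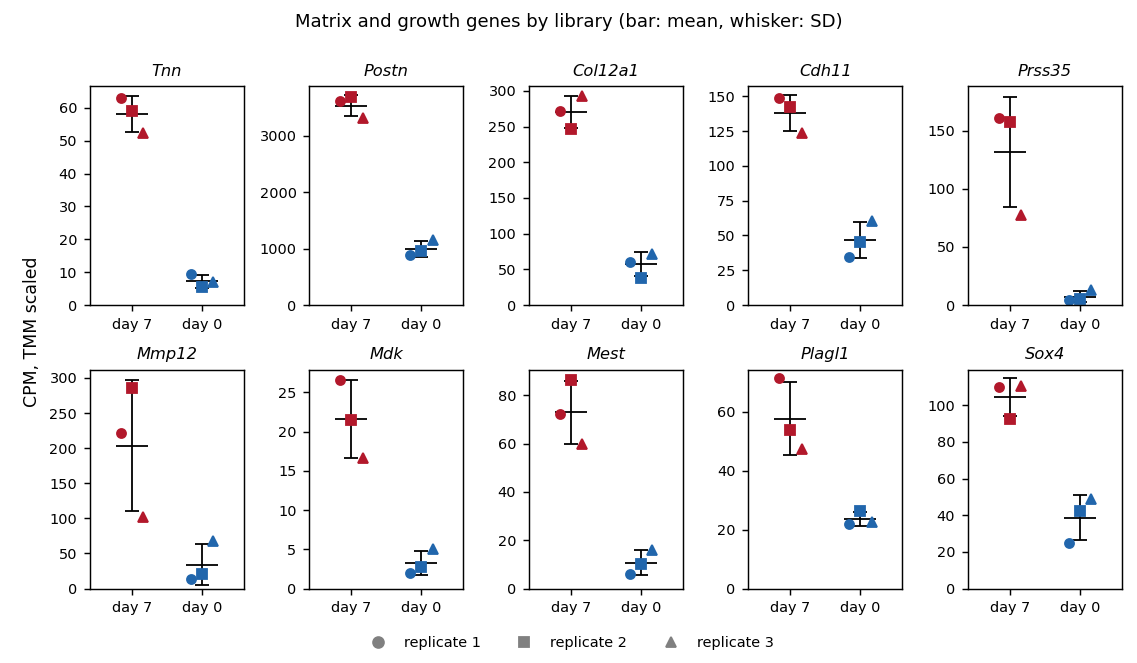
Levels in CPM of 10 matrix and growth genes in the 3 day 7 libraries (red, left) and the 3 day 0 libraries (blue, right); marker shapes give the replicate number, horizontal bars the mean and whiskers the SD. All day 7 points lie above all day 0 points in each panel, which the naming rule required of genes taken by rank. Relative to the mean, Prss35 and Mmp12 have the widest day 7 groups.

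Of 18 resting fibroblast genes, 2 fell and none rose, with a median log2 fold change of -0.66, where 3.94% of all genes tested fell. Ly6a, the surface antigen Sca-1, had 339, 328 and 265 CPM at day 7 and 725, 557 and 624 CPM at day 0, and fell by 1.03 ± 0.20 (adjusted p = 0.0153, and 0.0533 without day 7 replicate 3). Smpd3, a neutral sphingomyelinase, fell by 1.28 ± 0.28, and lost the call without day 7 replicate 2 or 3 (adjusted p = 0.0641 and 0.0855) or day 0 replicate 2 or 3 (0.0569 and 0.0845). The list had 9, 1 and 0 members lower when day 7 replicate 1, 2 or 3 was left out, 3, 1 and 1 when day 0 replicate 1, 2 or 3 was, and 0 in the 6 libraries alone. Of 12 smooth muscle and myofibroblast genes only Cald1, which encodes an actin-binding protein, passed, and it rose to 265 ± 35.5 CPM at day 7, against 182 ± 1.202 CPM at day 0 (adjusted p = 0.0101).

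Among genes of growth and patterning, the growth factor midkine, Mdk, had 26.6, 21.5 and 16.7 CPM at day 7 and 2.05, 2.78 and 5.02 CPM at day 0, and rose 6.56-fold (adjusted p = 0.0116, and 0.0509 without day 0 replicate 2). Sox4, a transcription factor of progenitor cells, had 110.3, 92.8 and 111 CPM at day 7 and 24.9, 42.2 and 48.7 CPM at day 0, and rose 2.71-fold (adjusted p = 0.00886). The groups did not overlap in either gene, which the naming rule required of genes taken by rank. Of 24 growth factors of repair, Pdgfa, the ligand of the fibroblast receptor for platelet-derived growth factor, rose by 0.50 ± 0.09, Fgf7, which stimulates keratinocytes, fell by 0.44 ± 0.10, and Csf1 fell as given above. Pdgfa did not pass without day 0 replicate 3 (adjusted p = 0.0529), nor Fgf7 without day 7 replicate 2 or 3 (0.0757 and 0.0771) or day 0 replicate 2 or 3 (0.0795 and 0.0940). Of 20 endothelial genes only Angpt2, an antagonist of vessel stability, passed, rising by 0.81 ± 0.15 (adjusted p = 0.0121, and 0.0503 without day 0 replicate 2).

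Of 9 imprinted growth genes tested, 3 rose and none fell, where 3.1% of all genes tested rose. Imprinted genes are expressed from 1 parental copy and many of them act in fetal growth. Mest, a hydrolase of this group, had 72.2, 86.3 and 60.005 CPM at day 7 and 5.95, 10.2 and 16.1 CPM at day 0. Plagl1, a zinc finger protein that controls other imprinted genes, had 71.5, 53.9 and 47.5 CPM at day 7 and 21.9, 26.4 and 22.7 CPM at day 0. Cdkn1c, the cyclin-dependent kinase inhibitor p57, had 56.3, 53.5 and 41.2 CPM at day 7 and 13.9, 25.02 and 29.4 CPM at day 0. Plagl1 rose by 1.29 ± 0.23 (adjusted p = 0.0110) and was called in each fit without 1 library. Mest rose by 2.76 ± 0.62 and Cdkn1c by 1.14 ± 0.27, and neither passed without day 7 replicate 2 (adjusted p = 0.0590 and 0.0711), day 7 replicate 3 (0.0674 and 0.0532), day 0 replicate 1 (0.0578 and 0.0547) or day 0 replicate 2 (0.0860 and 0.0784). Mest also lost the call without day 0 replicate 3 (0.0551), and Cdkn1c with the replicate block (0.0534).

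Of 22 Wnt ligands and regulators, Wnt9a alone passed. It rose to 15.4 ± 3.28 CPM at day 7, against 7.98 ± 0.789 CPM at day 0 (adjusted p = 0.0417), and was not called in any of the 6 fits without 1 library (0.0512 without day 7 replicate 3 to 0.115 without day 0 replicate 2) or with the replicate block (0.0645). All 30 cell cycle genes had a log2 fold change above 0, with a median of 0.49, and 1 passed. Ccne2, cyclin E2, had 16.05, 17.1 and 35.8 CPM at day 7 and 8.69, 10.4 and 10.8 CPM at day 0, and lost the call without day 7 replicate 3 (adjusted p = 0.0998) or without any 1 day 0 library (0.0702, 0.0849 and 0.0837 without day 0 replicates 1, 2 and 3). The summed level of the cell cycle list was 794, 788 and 1499 CPM in day 7 replicates 1 to 3, against 774, 669 and 784 CPM in day 0 replicates 1 to 3. It was highest in the hair-rich library, and the part of follicle cells in it was not tested.

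In the epidermal lists, basal and suprabasal genes did not pass and 1 cornified envelope gene did. None of 15 basal and suprabasal genes was called by edgeR, DESeq2 or limma-voom, with 2 at an unadjusted p under 0.05. Of 20 cornified envelope genes tested, Rptn, repetin, passed, while DESeq2 called 7 higher and the list median was 0.80. Rptn had 281, 222 and 221 CPM at day 7 and 52.7, 30.2 and 43.8 CPM at day 0. It rose by 2.52 ± 0.69 (adjusted p = 0.0483), and was not called in any of the 6 fits without 1 library (0.0627 without day 7 replicate 1 to 0.147 without day 0 replicate 2). Outside the list, the small proline-rich gene Sprr2k rose by 5.72 ± 0.72 (adjusted p = 0.00446). Sprr2k was called in each of the 6 fits without 1 library and was not followed across the other alternatives.

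Spink7, a serine protease inhibitor of stratified epithelia, had 8.79, 7.699 and 4.91 CPM at day 7 and 0.317, 0.127 and 0.238 CPM at day 0. This was the highest fold change among genes the naming rule took, 4.93 ± 0.98 on the log2 scale (adjusted p = 0.0168, and 0.0675 and 0.0613 without day 0 replicate 2 and 3). Serpina9, another serine protease inhibitor, had 5.24, 3.68 and 9.86 CPM at day 7 and 0.8203, 0.835 and 1.53 CPM at day 0, and rose 5.88-fold (adjusted p = 0.00977).

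Of 22 wound-edge keratinocyte genes, 1 passed. Plau, the urokinase that frees plasmin, fell by 1.09 ± 0.23, and was not called without day 7 replicate 2 or 3 (adjusted p = 0.0641 and 0.0794) or day 0 replicate 2 or 3 (0.0658 and 0.0725). Krt6a had 513, 231 and 843 CPM at day 7 and 708, 54.3 and 95.2 CPM at day 0, and the groups overlapped (log2 fold change 0.89 ± 0.75, adjusted p = 0.449). Without day 0 replicate 1 it was 2.82 (adjusted p = 0.0123), and 5 members of the list were higher. With day 0 replicates 2 and 3 both left out it was -0.39.

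Hair follicle genes were far higher in day 7 replicate 3 than in the other day 7 libraries. The summed level of 18 hair keratins tested was 422, 360 and 18483 CPM in day 7 replicates 1 to 3, against 43.7, 244 and 1676 CPM in day 0 replicates 1 to 3. Day 0 replicate 3 thus lay above day 7 replicates 1 and 2. No hair keratin was called or had an unadjusted p under 0.05, although the list median was 3.34, and neither DESeq2 nor limma-voom called any. Of 25 hair follicle regulators and structural genes edgeR called none and DESeq2 called 5 higher, and 8 had an unadjusted p under 0.05. By edgeR 4 were higher without day 7 replicate 1 and 5 with day 5 replicate 2 out of the shared spread. All 25 had a log2 fold change above 0, with a median of 2.17. Their groups did not overlap for 8, as against 29.2% of all genes. They summed to 620, 583 and 11786 CPM in day 7 replicates 1 to 3, and to 325, 426 and 1115 CPM in day 0 replicates 1 to 3.

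Tchh, trichohyalin of the inner root sheath, had 175, 148 and 6031 CPM at day 7 and 16.1, 91.7 and 497 CPM at day 0. Krt71, a keratin of the same sheath, had 113, 82.8 and 3794 CPM at day 7 and 3.41, 58.9 and 406 CPM at day 0. In both genes the 2 times overlapped. The log2 fold change of Tchh was 3.39 ± 2.12 with all libraries and -0.31 without day 7 replicate 3, and that of Krt71 was 3.09 ± 2.37 and -0.66. Krt25 and Prr9, also of the follicle, likewise turned below 0 without that library (-0.44 and -0.10). Foxq1, a transcription factor of the hair shaft, and Fgf5, which ends hair growth, were higher in every day 7 library than in every day 0 library. Foxq1 had 18.9, 20.2 and 43.7 CPM at day 7 and 12.7, 12.95 and 10.999 CPM at day 0 (adjusted p = 0.0716), and Fgf5 had 1.26, 2.33 and 7.17 CPM at day 7 and 0.485, 0.4301 and 1.15 CPM at day 0 (adjusted p = 0.0562).

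Lists of other tissues also stood apart in day 7 replicate 3. Melanocyte genes, whose cells sit in the bulb of growing follicles, summed to 105, 96.8 and 642 CPM in day 7 replicates 1 to 3, against 65.8, 62.3 and 100.5 CPM in day 0 replicates 1 to 3. No melanocyte gene was called by edgeR, 9 of 12 had an unadjusted p under 0.05 and DESeq2 called 1 higher. Tyrp1, a pigment enzyme, had 14.5, 11.1 and 178 CPM at day 7 and 6.34, 3.64 and 12.6 CPM at day 0. Skeletal muscle genes summed to 10337, 11299 and 4261 CPM in day 7 replicates 1 to 3, against 11357, 17926 and 16542 CPM in day 0 replicates 1 to 3, and adipocyte genes to 3130, 3485 and 2193 CPM at day 7 and 4648, 4306 and 3660 CPM at day 0. Of 19 muscle genes 1 fell, the actin gene Acta1, by 1.19 ± 0.33 (adjusted p = 0.0497). It was not called without day 7 replicate 2 or 3 (adjusted p = 0.0750 and 0.147), without day 0 replicate 2 or 3 (0.147 and 0.133) or with the replicate block (0.0768). No adipocyte gene was called by edgeR, with 7 of 15 at an unadjusted p under 0.05, 5 lower by DESeq2 and 1 by limma-voom. The part of these tissue shares in the matrix and macrophage results was not tested. Without day 7 replicate 3, 6 resident macrophage genes were lower, 7 interferon-stimulated genes were lower, 3 matricellular genes were higher and 2 collagens were higher.

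**Figure D4:**
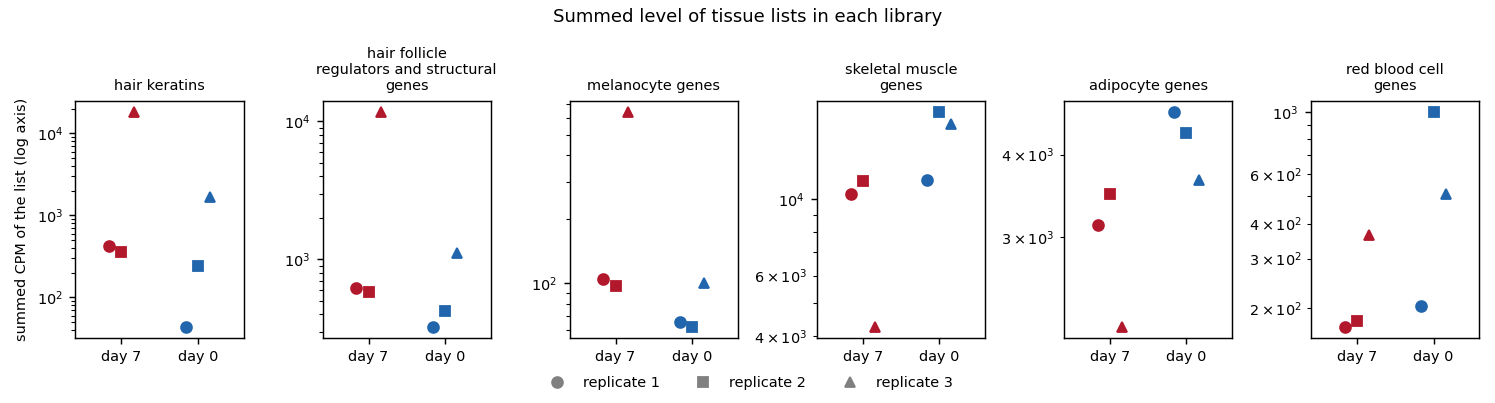
Summed level in CPM, on a log axis, of 6 tissue lists in the day 7 (red, left) and day 0 (blue, right) libraries, with marker shapes for replicate number. Day 7 replicate 3 (red triangle) is the highest library for the hair keratin, hair follicle and melanocyte lists and the lowest for the skeletal muscle and adipocyte lists.

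Schwann cell genes had no member called by edgeR in all 15 libraries, 8 of 15 at an unadjusted p under 0.05, 7 lower by DESeq2 and 5 by limma-voom. Prx, periaxin of the myelin sheath, had 30.6, 10.9 and 13.4 CPM at day 7 and 45.1, 42.2 and 46.3 CPM at day 0 (adjusted p = 0.0540). Its adjusted p was 0.00906 without day 7 replicate 1, where 8 members of the list were lower. Of 13 sebaceous gland genes edgeR called none, with 2 at an unadjusted p under 0.05 and 1 lower by DESeq2, and of 18 circadian clock genes none, with 2 and 1. Of 7 red blood cell genes edgeR called none with all 15 libraries, while DESeq2 called 2 lower, and 6 had an unadjusted p under 0.05. By edgeR 4 were lower without day 0 replicate 1 and 3 with day 7 replicate 3 left out as well. Their sum was 171, 180 and 364 CPM in day 7 replicates 1 to 3, against 203, 1003 and 512 CPM in day 0 replicates 1 to 3.

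Genes of the mitochondrial genome were higher at day 7. They encode subunits of the respiratory chain. Of 13 members, 9 rose and none fell, with a median log2 fold change of 0.72, where 3.1% of all genes tested rose. The groups did not overlap for 12 of the 13, as against 29.2% of all genes. All mitochondrial transcripts took 8.07%, 9.42% and 9.24% of the counts in day 7 replicates 1 to 3, against 5.28%, 6.29% and 5.94% in day 0 replicates 1 to 3, so every day 7 library lay above every day 0 library. mt-Nd4, a subunit of complex I, had 7307, 9341 and 8185 CPM at day 7 and 4319, 4706 and 4567 CPM at day 0, and rose 1.83-fold (adjusted p = 0.00974). mt-Atp8, of the ATP synthase, had 1437, 1155 and 1917 CPM at day 7 and 614, 679 and 659 CPM at day 0, and rose 2.31-fold (adjusted p = 0.00886). The other genes called higher were mt-Nd4l, mt-Co2, mt-Cytb, mt-Nd6, mt-Nd1, mt-Nd5 and mt-Atp6. Of these, mt-Nd6, mt-Nd1, mt-Nd5 and mt-Atp6 lost the call without day 7 replicate 2 (adjusted p = 0.0559, 0.0577, 0.0794 and 0.0534), day 7 replicate 3 (0.0721, 0.0660, 0.0987 and 0.0741) or day 0 replicate 3 (0.0837, 0.0712, 0.102 and 0.0706), mt-Nd6 and mt-Nd5 also without day 0 replicate 1, mt-Nd1 and mt-Nd5 without day 0 replicate 2, and mt-Nd5 with the replicate block (0.0531). The list had 5 members higher without day 7 replicate 3, 7 higher and 1 lower without day 0 replicate 1, 3 higher without both, and in the 6 libraries alone 0, where mt-Nd4 had an adjusted p of 0.0997 and mt-Atp8 of 0.0848.

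Among 20 genes of hypoxia and glycolysis, 1 was higher and 1 was lower at day 7. Egln3, the oxygen sensor that hydroxylates hypoxia-inducible factor, had 67.8, 63.8 and 60.5 CPM at day 7 and 31.3, 36.3 and 37.5 CPM at day 0, and rose 1.83-fold (adjusted p = 0.00974). Slc16a3, the lactate exporter, fell by 0.70 ± 0.16, and was not called without day 7 replicate 2 or 3 (adjusted p = 0.0625 and 0.0767) or day 0 replicate 3 (0.0904). Of 15 immediate early genes 1 passed, the phosphatase gene Dusp1, with 56.8, 47.6 and 33.5 CPM at day 7 and 272, 131 and 96.8 CPM at day 0. It fell by 1.86 ± 0.38, with an adjusted p of 0.0534 and 0.0736 without day 7 replicate 2 and 3. Of 16 genes of protein folding in the endoplasmic reticulum Manf, a secreted stress factor, rose by 0.81 ± 0.17. Manf lost the call when day 7 replicate 3 (adjusted p = 0.0664), day 0 replicate 2 (0.0804) or day 0 replicate 3 (0.0728) was left out.

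The remaining genes that the naming rule took belong to no list. Akr1d1, a steroid reductase, had 11.0, 7.699 and 6.09 CPM at day 7 and 0.392, 0.607 and 0.953 CPM at day 0, and rose by 3.66 ± 1.02 (adjusted p = 0.0490), a call lost in each of the 6 fits without 1 library (0.0626 without day 7 replicate 1 to 0.141 without day 0 replicate 2). Tdh, threonine dehydrogenase, rose 6.48-fold, and was not called without day 7 replicate 3 (adjusted p = 0.0606) or day 0 replicate 2 or 3 (0.0717 and 0.0593). Banp, a nuclear protein that binds CG-rich promoters, had 22.7, 20.1 and 23.7 CPM at day 7 and 10.5, 10.8 and 9.53 CPM at day 0, with little spread in either group (adjusted p = 0.00545). The membrane proteins Tmem98 and Prr7 rose 2.08-fold and 3.71-fold. On the low side, Pgam1-ps2, a pseudogene copy of a phosphoglycerate mutase, was at 0.904, 0 and 0 CPM at day 7 and at 14.7, 13.7 and 16.3 CPM at day 0, and its likeness to other copies leaves the value uncertain. The class I histocompatibility genes H2-T24 and H2-T10, also with close copies, fell by 2.81 ± 0.43 and 2.51 ± 0.41, and were lower in day 0 replicate 1 than in the other day 0 libraries (H2-T24 23.2, 68.5 and 82.4 CPM). Mup17, a urinary protein gene with many copies, had 3.53, 3.43 and 4.04 CPM at day 7 and 11.2, 122 and 9.09 CPM at day 0, where replicate 2 was far above the rest. Its log2 fold change was -3.69 ± 0.97 with all libraries and -1.47 without day 0 replicate 2 (adjusted p = 0.191). It was also not called without day 7 replicate 1, 2 or 3 (adjusted p = 0.0686, 0.0969 and 0.148) or with the replicate block (0.0883).

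Set against day 5, day 7 differed in 1 gene (0.00584% of those tested), with 1573 at an unadjusted p under 0.05 and 142 called by DESeq2. Genes of the hair follicle lists took 0.157%, 2.51% and 0.0343% of the counts in day 5 replicates 1 to 3. Day 5 replicate 2 was thus hair-rich, as was day 7 replicate 3, and each stood apart within its group. The part of this spread in the low number of calls was not tested. Leaving out any 1 of the day 7, day 5 or day 0 libraries gave 0 or 1 genes. Set against day 1, day 7 differed in 2458 genes (14.3%), 986 (5.75%) higher and 1472 (8.59%) lower. These comparisons share the day 7 libraries with the one above and are given for their own values.

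Against day 1, of the 23 cytokines and chemokines 19 were lower at day 7, of 17 neutrophil genes 13, of 15 interferon-stimulated genes 10 and of 14 resident macrophage genes 6, and of 19 collagens 7 were higher and 1 lower. Against day 5 no member of any list was called by edgeR. Tnn averaged 7.26 ± 2.01, 12.7 ± 4.49, 24.9 ± 0.553, 44.8 ± 22.5 and 58.1 ± 5.48 CPM at day 0, 1, 3, 5 and 7 (SD, n = 3 each), so its means climbed at each step. Cd209f averaged 108 ± 4.62, 49.5 ± 12.7, 42.5 ± 12.8, 20.5 ± 7.03 and 20.2 ± 6.81 CPM at those times, with its lowest means at day 5 and 7. Rsad2 averaged 54.3 ± 33.8, 105 ± 5.63, 36.5 ± 7.36, 23.3 ± 6.73 and 13.5 ± 2.42 CPM, highest at day 1 and lowest at day 7. Prss35 averaged 7.31 ± 4.85, 4.45 ± 4.27, 6.32 ± 1.91, 39.6 ± 20.8 and 132 ± 47.3 CPM, and its log2 fold change of day 7 over day 5 was 1.73 ± 0.65 (adjusted p = 0.465), so the step from day 5 did not pass. Mmp12, which averaged 34.9 ± 3.0999 CPM at day 5, had a log2 fold change of day 7 over day 5 of 2.54 ± 0.57 (adjusted p = 0.280).

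**Figure D5:**
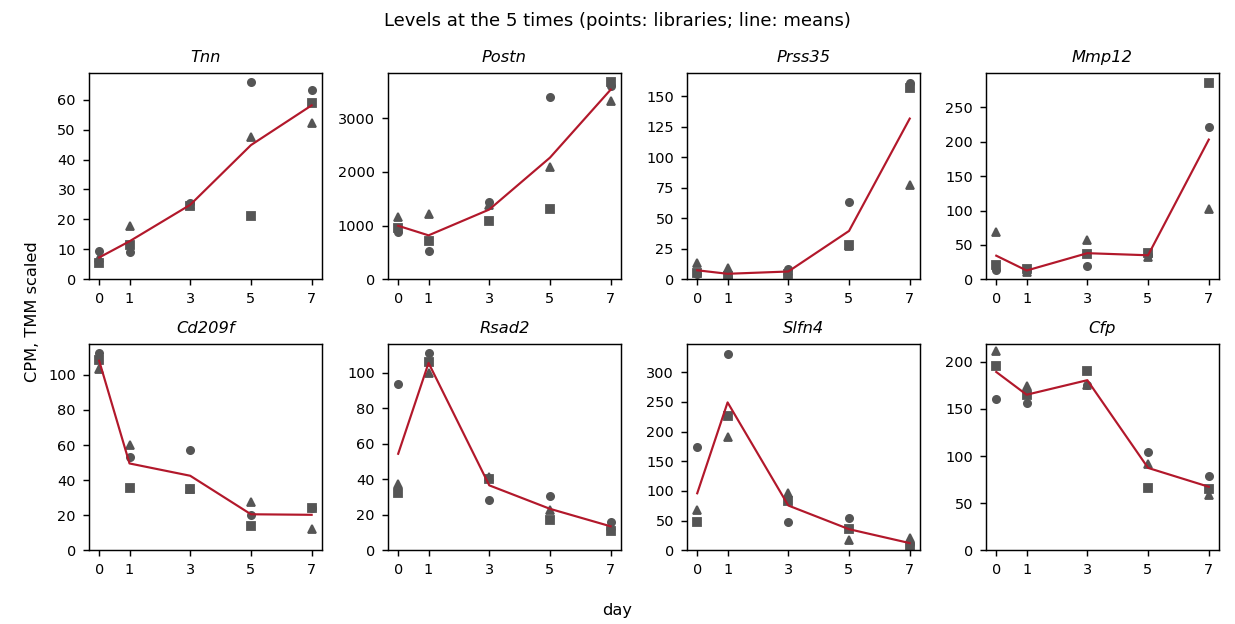
Levels in CPM of 8 genes at day 0, 1, 3, 5 and 7; points are libraries, with marker shapes for replicate number, and the line joins the means of 3 libraries. Tnn, Postn and Prss35 have their highest means at day 7, Cd209f its lowest at day 5 and 7, and Rsad2 and Slfn4 their highest at day 1.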

How the data were processed

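Polyadenylated RNA of skin was measured by RNA-seq in 15 libraries, 3 at each of day 0, 1, 3, 5 and 7. The authors deposited estimated counts per gene. The submitters' processing notes name kallisto 0.43, a pseudoaligner; its index, build and strand setting, and how genes were summed, were not given in the sources used here. The deposited estimated counts were already whole, so rounding changed none. In each library 26 rows whose names are dates, 0.155% to 0.179% of the counts, were left out, and 30281 named genes of 30307 rows remained. Genes passed edgeR's expression filter at a minimum count of 10 and were scaled by TMM.

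Day 7 was set against day 0 with edgeR 4.0.16 in R 4.3.3, by the quasi-likelihood test on all 15 libraries, which share 1 estimate of the spread, with Benjamini-Hochberg adjustment over all genes tested. An adjusted p under 0.05 is a call, and the SE of a log2 fold change comes from the same test. Depth was 38062562 to 60450396 estimated counts per library. Between libraries of a group, the chi-square per degree of freedom was 34.2 to 437, so none was a copy of another.

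Alternatives were RLE and upper quartile scaling, library sizes without hair genes, other filters on low counts, DESeq2 1.42.0, limma-voom (limma 3.58.1), the 6 libraries alone, the replicate number as a block, and leaving out libraries. Same-numbered day 7 and day 0 libraries deviated together from their group means across genes (correlation 0.140, 0.240 and 0.440 for numbers 1, 2 and 3). Between same-numbered day 7 and day 5 libraries this correlation was 0.50, -0.719 and -0.806. Differently numbered libraries were not compared, so these values cannot tell whether the numbers pair the libraries. The main test used no pairing, and the replicate block was an alternative to it. The labels do not say what a number stands for.

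The members and lists were chosen with earlier results of these data known. Genes were named by rule: 10 called genes each way by fold change and 10 each way by the smallest p, among those changed at least 2-fold with no overlap between groups, an ordinary symbol and a mean of at least 5 CPM in the higher group; up to 6 called members of each list, or 2 with the smallest p where none was called; and in the hair lists the 4 highest at day 7. Lyve1, Mrc1, F13a1, Ifit1, Isg15, Mx2, Oasl2, C1qc, mt-Nd1, mt-Nd5, mt-Atp6, Krt6a, Sprr2k and the 6 skin genes used to check the label were named outside this rule, after their values were seen. A few called genes are not reported here. Levels of genes with near-identical copies are uncertain, as are those of overlapping and antisense genes, since no strand setting is known. Promoter sequences and coordinates are RefSeq's, on GRCm38.p6.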

Additional observations from a re-analysis of the deposited data

How the results depend on the processing

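Under RLE scaling, upper quartile scaling, library sizes without hair genes, no filter on low counts, a filter of 1 CPM in 3 libraries, limma-voom and the replicate block with 15 libraries, the number of genes called between day 7 and day 0 stayed within 1.5 times of 1208 (1211, 1171, 1253, 925, 1314, 1148 and 822), as did the numbers higher and lower. DESeq2 called 2809, 1322 higher and 1487 lower. The 6 libraries alone gave 65, 33 higher and 32 lower, and with the replicate block added, chosen after seeing the data, 0, 0 and 0. Leaving out day 7 replicate 3 and day 0 replicate 1 together gave 441, 212 higher and 229 lower, and day 0 replicates 2 and 3 together 79, 15 higher and 64 lower. With day 5 replicate 2 out of the shared spread there were 802 higher. Leaving out 1 library gave 279 to 2074 calls, 94 to 973 higher and 143 to 1101 lower. The cause of these moves was not tested.

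For day 7 against day 5 the number was 2 under upper quartile scaling, 142 with DESeq2, 3 with limma-voom, 0 with the replicate block, 0 with day 5 replicate 2 out of the shared spread, and 0 to 1 without 1 library. Day 7 against day 1 gave 1134 to 2605 without 1 library.

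Of 108 called genes followed across the alternatives, 108 kept the call under RLE, 102 under upper quartile scaling, 107 without hair genes in library sizes, 108 with DESeq2, 100 with limma-voom, 90 with the replicate block, 32 in the 6 libraries alone, 56 with day 7 replicate 3 and day 0 replicate 1 both left out, and 29 with day 0 replicates 2 and 3 both left out. Calls lost under the block are given beside the genes described, and 50 of the 108 were called in each of the 6 fits without 1 library. None of the 108 changed sign in any alternative run. Genes that were not called did. Without 1 library, the log2 fold change of Krt5 ran from -0.062 to 0.46 (below 0 at -0.062 and -0.05 for day 0 replicates 2 and 3, and at -0.04 for day 7 replicate 3), Krt10 from -0.084 to 0.50 and Col3a1 from -0.40 to 0.044. Likewise Krt25 ran from -0.44 to 5.64, Krt71 from -0.66 to 5.45, Tchh from -0.31 to 5.33 and Prr9 from -0.10 to 6.02, each lowest when day 7 replicate 3 was left out. Leaving out day 0 replicate 1 as well gave -1.02 for Krt25, -1.24 for Krt71, -0.86 for Tchh and -0.67 for Prr9. With day 0 replicates 2 and 3 both left out, Krt5 was at -0.43, Krt14 at -0.16, Krt10 at -0.027 and Krt6a at -0.39. Another scaling moved the median log2 fold change of all genes to at most 0.039. Genes of a few counts per library had fold changes with wide errors.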

Other observations

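Gene families were counted by name after their values were seen, so the counts are descriptions with no test of their own. Some family members are also list members, among them Oas1a and Oasl2 of the interferon-stimulated list, so those counts partly repeat. Of 8 Schlafen genes tested, 6 were lower at day 7 (Slfn1, Slfn2, Slfn3, Slfn4, Slfn5 and Slfn8), with a median log2 fold change of -0.96. Of 12 Ifi200 genes, which encode sensors of DNA, 9 were lower, with a median of -1.03. Of 10 oligoadenylate synthetase genes 7 were lower, with a median of -1.38, and all 4 Trim30 genes were, with a median of -1.37. These families hold close copies, so the split of counts among members is uncertain. The 3 subunits particular to the immunoproteasome, Psmb8, Psmb9 and Psmb10, which trim peptides for class I presentation, were all lower, with a median of -0.89. Among all genes tested 3.94% were lower.

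Of 379 zinc finger genes named Zfp, 23 (6.07%) were higher and 2 (0.528%) were lower, where 3.1% of all genes were higher, and their median log2 fold change was 0.14. Of 31 genes named Hsp, 2 were higher, Hsp90aa1 and Hsph1. The 54 keratin-associated protein genes had a median of 4.14 and edgeR called none with all 15 libraries, none having an unadjusted p under 0.05, their counts being 2.16% of day 7 replicate 3. Of 75 nuclear genes with names that start with Ndufa, Ndufb, Cox and a digit, or Atp5, 1 was higher, Cox20. Their median was -0.02, beside 0.72 for the mitochondrially encoded list. These names do not cover all nuclear genes of the respiratory chain.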
